A study of Mus musculus with 12 samples.

Results

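Contacts between the Shh regulatory domain and the sequence flanking it on the Shh side were described in mouse cells by chromosome conformation capture carbon copy (5C). In 5C, crosslinked chromatin is cut with HindIII and religated, and oligonucleotides that anneal to the ligated ends report how often each pair of fragments was joined. The contacts described here are the fragment pairs with 1 midpoint below position 28780000 of chromosome 5 (mm9), called the flank, and the other from 28780000 to 29720000, called the domain, lying more than 50 kb apart and above 0 in any library. Of the 28980 pairs above 0 in the map, 7900 met this rule, or 27.3%, and they joined 84 flank fragments with 189 domain fragments. Their distances ran from 52.5 to 1400 kb, with a median of 694 kb. A further 7938 such pairs were at 0 in every library. The fragments fell into 2 classes that were joined almost wholly with each other, the alternating design of the oligonucleotides: of the 7915 possible crossing pairs between the classes 15 were at 0 throughout, and none of the 7923 within a class was above 0.

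Embryonic stem cells of the 46c line (ESC, 2 biological replicates) were compared with neural progenitor cells (NPC, 2 replicates) made from them by 7 days in N2B27 medium. The other groups were transfected 46c ESC: tSBE6-Vp64 and tSBE2-Vp64 with 1 replicate each, and tSBE(6+2-Vp64) with 2. The prefix t was read as TALE, a class of proteins engineered to bind a chosen DNA site, here an enhancer of Shh named SBE6 or SBE2, with Vp64, a strong activation domain, attached. No group with a TALE lacking the activator was analysed here, so untransfected ESC were the comparator of all groups, and transfection and activation cannot be told apart. Because 5C measures genomic DNA, the cell type of the NPC could not be checked on marker genes. The replicates of a group are separate biological replicates by their labels, which do not say how the cultures were kept apart.

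A domain edge is a position that contacts cross less often than their distance would predict. Such edges are commonly found at binding sites of CTCF and cohesin, the proteins that form chromatin loops, and they limit which enhancers lie close to which promoters. Shh encodes a secreted signal that sets cell fates across the embryonic spinal cord, brain and limb bud. It stands at one end of its domain, which holds the neural enhancers SBE6, SBE4 and SBE2 and, at the far end, the limb enhancer ZRS within Lmbr1. The flank beyond Shh holds other genes: Insig1, a regulator of sterol synthesis, the homeobox gene En2, Cnpy1, a gene of FGF signalling, and Rbm33, which encodes an RNA-binding protein.

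The files held 11 distinct libraries, since 1 NPC library was deposited under both biological replicates with values that differed by at most 4.02e-08, and it was counted once, in replicate 1. Each library was rescaled to a signal of 1000 over the 341 fragments that all files share, technical replicates were averaged, and all levels below are signal per 1000. The smallest step between values implied 0.978 to 48.2 M reads per library. The lowest depths were in NPC: replicate 2 was 1 library of 1.87 M, and technical replicate 2 of replicate 1 had 0.978 M. The libraries of the other groups had 9.25 to 48.2 M. One library stood apart: in tSBE(6+2-Vp64) replicate 1, technical replicate 1, 99.8% of the crossing pairs were above 0, against 74.2% in its technical partner, and pairs over 50 kb apart took 82.9% of its signal against 48.7%. Its mean crossing signal without the very high pairs described below was 0.0214, against 0.00842 in the partner, so the levels of tSBE(6+2-Vp64) replicate 1 rest on it in good part. Among the others, 24.6% to 88.5% of the crossing pairs were above 0.

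Crossing contacts made up 15.8% to 32.4% of the long-range signal, with the widest gap between the replicates of ESC. They held 15.8% and 28.8% of the signal over 50 kb in the ESC replicates, 30.9% and 29.5% in NPC, 19.9% in tSBE6-Vp64, 28.9% in tSBE2-Vp64, and 24.9% and 32.4% in tSBE(6+2-Vp64). The ESC replicates thus spanned most of the range, and both NPC replicates lay above both of them. ESC had a mean share of 22.3% ± 9.14 (SD, n = 2). The mean of NPC, 30.2% ± 1.03 (SD, n = 2), was 7.91 percentage points higher (exact two-sided permutation test, p = 0.333, the smallest p that 2 against 2 allows). With the edge set 20 kb lower the difference turned to -2.53 points in NPC and -2.90 in tSBE2-Vp64. The difference from ESC was 6.37 points in tSBE(6+2-Vp64), whose replicates overlapped those of ESC (exact permutation p = 0.667). It was -2.38 points in tSBE6-Vp64, which lay between the ESC replicates, and 6.64 points in tSBE2-Vp64, which lay above both. All these comparisons share the ESC replicates and depend on them. Without ESC replicate 1 the differences were 1.44 points in NPC, -8.85 in tSBE6-Vp64, 0.18 in tSBE2-Vp64 and -0.092 in tSBE(6+2-Vp64). Without ESC replicate 2 they were 14.4, 4.08, 13.1 and 12.8 in the same order. Without the very high pairs described below, the shares ran from 15.8% to 25.2%, and the differences from ESC were 5.70 points in NPC and 3.68 in tSBE(6+2-Vp64), both with no overlap (exact permutation p = 0.333 each). The difference was then 2.07 points in tSBE2-Vp64 and -1.27 in tSBE6-Vp64, and both of these lay between the ESC replicates.

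At equal distance, crossing pairs carried a mean signal that was not separable from that of pairs within the domain when every pair was counted, and that was lower in every replicate once 21 very high pairs were left out. Means were compared within classes of distance, 10 per factor of 10, over the 12 classes from 63.1 to 1000 kb that held at least 20 pairs of each kind. With all pairs, the log2 ratio of crossing to within-domain signal was -1.02 and -0.32 in ESC, 0.27 and 0.19 in NPC, -0.82 in tSBE6-Vp64, 0.09 in tSBE2-Vp64, and -0.41 and -0.67 in tSBE(6+2-Vp64). Replicates of NPC and tSBE2-Vp64 stood above 0 and the 5 others below it. The mean was -0.34 ± 0.49 (SD, n = 8; exact two-sided sign-flip permutation test, p = 0.102).

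A pair was called very high where it lay over 50 kb apart and held more than 0.5% of any library. Of the 21, 8 crossed the edge, 4 lay within the domain, 1 lay within the flank and 8 lay elsewhere in the map. Without them, the log2 ratio to within-domain pairs was -1.02 and -0.78 in ESC, -0.37 and -0.50 in NPC, -1.10 in tSBE6-Vp64, -0.61 in tSBE2-Vp64, and -0.53 and -0.71 in tSBE(6+2-Vp64). All 8 replicates were below 0, with a mean of -0.70 ± 0.26 (SD, n = 8; exact sign-flip permutation p = 0.0078, the smallest that 8 replicates allow). In percent of the within-domain level, crossing pairs stood at 49.4% and 58.1% in ESC, 77.5% and 70.8% in NPC, 46.6% in tSBE6-Vp64, 65.6% in tSBE2-Vp64, and 69.2% and 60.9% in tSBE(6+2-Vp64). This test takes the 8 replicates of 5 groups as alike in kind. The 21 pairs were chosen by their height in the same values that are tested, and leaving them out moved the mean from -0.34 to -0.70. The p-value is thus not independent of that choice. The technical partner of the library that stands apart was at -0.59 against the domain and -1.10 against the flank.

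Behind these ratios, the crossing level varied less than the within-domain level, apart from tSBE(6+2-Vp64) replicate 1. Over the matched classes and without the very high pairs, crossing pairs had a mean signal of 0.00747 and 0.00725 in ESC, 0.00865 and 0.00814 in NPC, 0.00867 in tSBE6-Vp64, 0.0081 in tSBE2-Vp64, and 0.0148 and 0.00775 in tSBE(6+2-Vp64). Within-domain pairs had 0.0151 and 0.0125 in ESC, 0.0112 and 0.0115 in NPC, 0.0186 in tSBE6-Vp64, 0.0124 in tSBE2-Vp64, and 0.0214 and 0.0127 in tSBE(6+2-Vp64). In NPC both crossing values were above both ESC values and both within-domain values were below them. The log2 ratio was 0.47 higher in NPC than in ESC and 0.28 higher in tSBE(6+2-Vp64), in both cases with no overlap between replicates (exact permutation p = 0.333 each). It was 0.29 higher in tSBE2-Vp64, above both ESC replicates, and the difference was -0.20 in tSBE6-Vp64, below both.

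**Figure D1:**
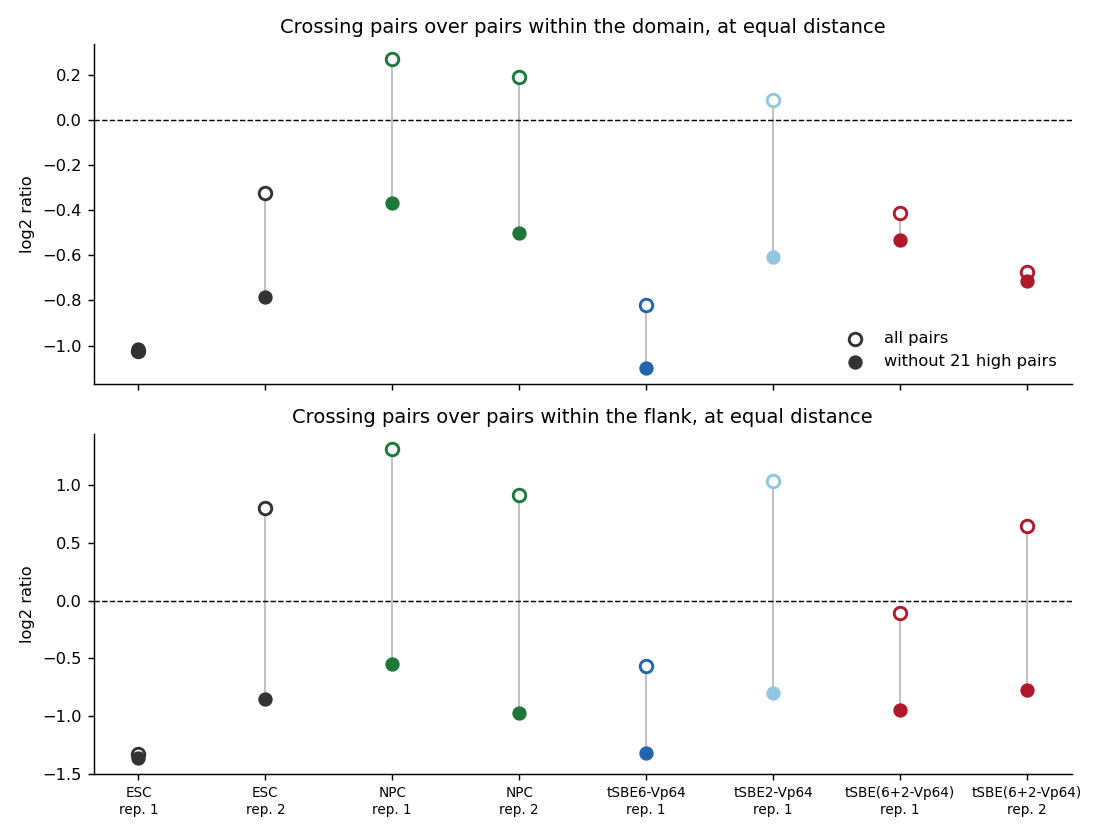
The y axis gives the log2 ratio of the mean signal of crossing pairs to that of pairs within the domain (upper panel) or within the flank (lower panel) at equal distance, and the x axis the 8 biological replicates. Open circles are all pairs and filled circles leave out the 21 very high pairs; every filled circle lies below 0, from -1.10 to -0.37 against the domain and from -1.37 to -0.55 against the flank, while 3 open circles of the upper panel and 5 of the lower lie above 0.

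Against pairs within the flank, the mean ratio was above 0 with the very high pairs and below 0 without them. Over 9 distance classes up to 501 kb, the log2 ratio with all pairs was -1.33 and 0.80 in ESC, 1.31 and 0.91 in NPC, -0.56 in tSBE6-Vp64, 1.04 in tSBE2-Vp64, and -0.11 and 0.64 in tSBE(6+2-Vp64). The ESC replicates stood on opposite sides of 0, and the mean was 0.34 ± 0.92 (SD, n = 8; exact sign-flip permutation p = 0.3203). Without the very high pairs all 8 replicates were below 0, at -1.37, -0.85, -0.55, -0.97, -1.32, -0.80, -0.95 and -0.78 in the same order, with a mean of -0.95 ± 0.28 (SD, n = 8; exact sign-flip permutation p = 0.0078). As for the domain, this p-value is not independent of the choice of the very high pairs from the same values. Against the flank without those pairs, NPC and ESC overlapped, with a difference of 0.35 (exact permutation p = 0.667).

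Measures that do not rest on the height of single pairs had the direction seen without the very high pairs. With each value limited at the 99th percentile of its library and kind of pair, the mean log2 ratio was -0.77 to the domain and -0.999 to the flank, and all 8 replicates lay below 0 in both (exact sign-flip permutation p = 0.0078 each). For the percent of pairs above 0 in place of the mean, it was -0.23 to the domain and -0.26 to the flank, with 7 of 8 replicates below 0 in both (exact sign-flip permutation p = 0.0156 each). The exception was tSBE(6+2-Vp64) replicate 1, in which nearly every pair was above 0 on either side.

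The position of the edge was examined by moving it along the map. At each of 39 positions from 300 kb below to 460 kb above 28780000, the signal of pairs that spanned the position within 250 kb on either side was divided by that expected from their distances, without the very high pairs. The ratio was lowest at 28780000 in 7 of 8 replicates. The exception was ESC replicate 2, where 20 kb below it was -1.10 on the log2 scale against -1.09 at the edge. At the edge the log2 ratio was -1.26 and -1.09 in ESC, -0.66 and -0.90 in NPC, -1.07 in tSBE6-Vp64, -0.94 in tSBE2-Vp64, and -0.67 and -0.81 in tSBE(6+2-Vp64). ESC replicates were the lowest and tSBE6-Vp64 the next, with no overlap between ESC and NPC or between ESC and tSBE(6+2-Vp64). The mean over replicates was -0.93 at the edge, -0.90 at 20 kb below it and -0.81 at 20 kb above it. It was -0.68 at 60 kb below the edge and -0.65 at 60 kb above it, and it reached 0.54 at its highest. The lowest point was thus shallow toward the flank over a step of 20 kb. The position 28780000 was part of the rule that chose the contacts. Whether it was first set from contact data of this locus is not known here, so the scan describes it and is not an independent test of it.

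**Figure D2:**
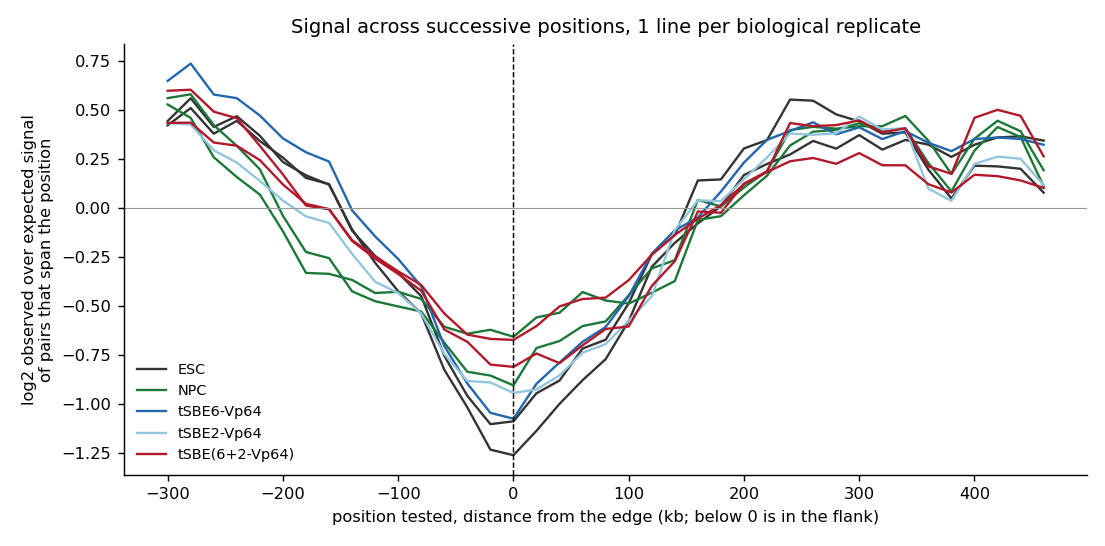
The x axis gives the position tested as distance from the edge in kb and the y axis the log2 ratio of observed to expected signal of the pairs that span it within 250 kb, without the 21 very high pairs; each line is 1 biological replicate, coloured by group. All lines dip at or next to 0, to between -1.26 and -0.66, and rise above 0 on both sides.

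The group means of crossing and within-domain signal were closer at 400 to 800 kb than at 50 to 100 kb in every group. Without the very high pairs, ESC crossing pairs had a mean signal of 0.00979 ± 0.00131 (SD, n = 2) at 50 to 100 kb and 0.0072 ± 0.000192 at 400 to 800 kb. Over the same span the within-domain mean went from 0.0287 ± 0.01 (SD, n = 2) to 0.0118 ± 0.00237 and the within-flank mean from 0.0335 ± 0.00891 to 0.0113 ± 0.00549. In NPC the crossing mean was 0.00611 ± 0.000489 (SD, n = 2) at 50 to 100 kb and 0.00898 ± 0.000400 at 400 to 800 kb, against 0.0195 ± 0.00207 and 0.00978 ± 0.000119 within the domain. The NPC crossing level had no steady course between these, with 0.00987 at 100 to 200 kb and 0.00589 at 200 to 400 kb. In tSBE6-Vp64 the crossing mean was 0.0172 at 50 to 100 kb and 0.00822 at 400 to 800 kb, against 0.0394 and 0.0157 within the domain. At the same distances it was 0.00885 and 0.00789 in tSBE2-Vp64, against 0.0218 and 0.0103 within the domain. In tSBE(6+2-Vp64) it was 0.0129 and 0.0112, against 0.0286 and 0.0146 within the domain. At 800 to 1600 kb the crossing and within-domain means were 0.00774 and 0.0148 in ESC and 0.00957 and 0.0135 in NPC, but the domain holds only 148 pairs at that distance. Only 58 crossing pairs lay at 50 to 100 kb, so the short-range values rest on few pairs.

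The 10 crossing pairs just inside the limit of 50 kb, from 52.5 to 62.0 kb, had mean signals of 0.00594 to 0.0297 over the 8 replicates. The 10 just outside it, from 35.8 to 49.6 kb, had 0.00505 to 0.0206.

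**Figure D3:**
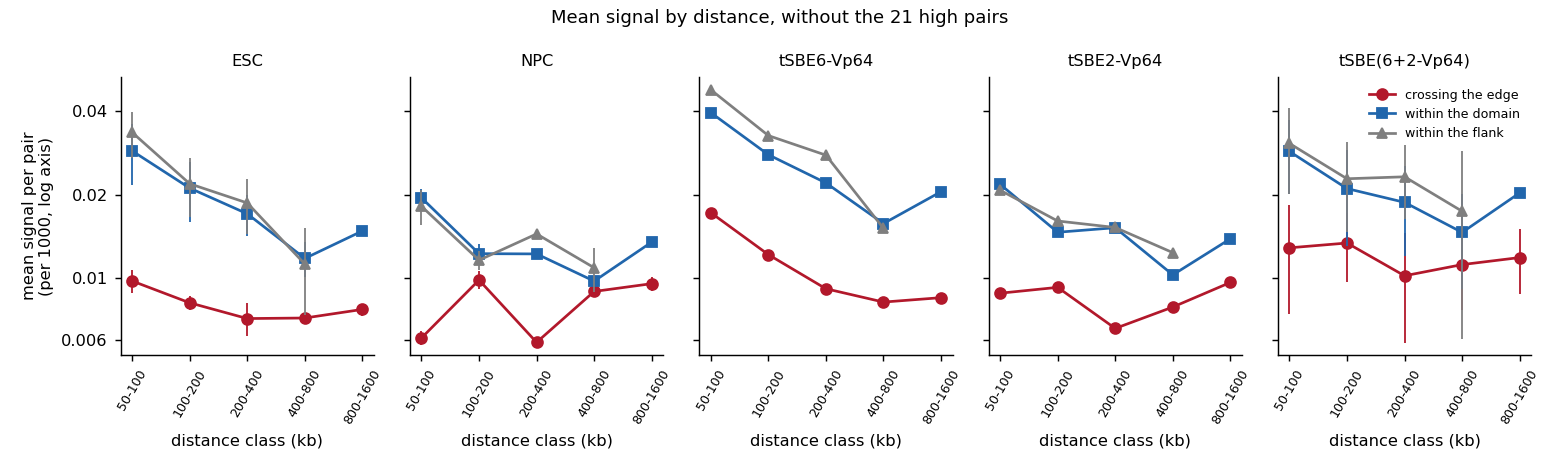
The x axis gives the distance class in kb and the y axis the mean signal per fragment pair per 1000 on a log axis, for pairs that cross the edge, lie within the domain or lie within the flank, without the 21 very high pairs. Points are means over the biological replicates of a group and vertical lines run from the lowest to the highest replicate; crossing pairs lie lowest in every class of every group, for example at 0.00979 against 0.0287 within the domain in ESC at 50 to 100 kb.

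The 8 very high crossing pairs took more than 50% of the crossing signal in both NPC replicates, tSBE2-Vp64 and tSBE(6+2-Vp64) replicate 2, and least in ESC replicate 1. They held 1.07% and 49.2% of it in ESC, 68.5% and 67.2% in NPC, 20.6% in tSBE6-Vp64, 63.6% in tSBE2-Vp64, and 28.2% and 57.1% in tSBE(6+2-Vp64). ESC replicate 1 was the lowest of the 8 replicates and NPC replicate 1 the highest. In ESC replicate 1, 990 pairs were needed to reach 50% of the crossing signal, and in ESC replicate 2 only 7. In both NPC replicates 1 pair sufficed, in tSBE2-Vp64 2 pairs and in tSBE(6+2-Vp64) replicate 2 5 pairs, against 685 in tSBE6-Vp64 and 716 in tSBE(6+2-Vp64) replicate 1. Without the 8 pairs the mean crossing signal lay between 0.0074 and 0.00917 in all replicates but tSBE(6+2-Vp64) replicate 1 (0.0149).

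The highest crossing pair by the mean of group means joined fragment Shh_140 (chr5:28763979-28767078), its midpoint at -14.5 kb from the edge, with Shh_260 (chr5:29166827-29168466), 402 kb away in the stretch between SBE4 and SBE2. Its signal was 0.492 and 33.2 in ESC, 120.4 and 103.5 in NPC, 16.0 in tSBE6-Vp64, 91.4 in tSBE2-Vp64, and 30.6 and 35.7 in tSBE(6+2-Vp64). NPC were highest and both lay above both ESC replicates, which differed from each other by a larger ratio than NPC differed from ESC replicate 2. The 23 pairs whose fragments lie within 3 fragments of it had a median over replicates of 0.00982, so the pairs around it did not share its level. The same flank fragment with Shh_262 (chr5:29173628-29173865), a little farther along, had 0.0082 and 6.30 in ESC, 1.76 and 1.99 in NPC, 0.228 in tSBE6-Vp64, 1.90 in tSBE2-Vp64, and 1.29 and 2.78 in tSBE(6+2-Vp64). There ESC replicate 2 was the highest of all.

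The second pair joined Shh_143 (chr5:28770697-28780563), the last flank fragment, its midpoint at -4.37 kb from the edge, with Shh_321 (chr5:29319273-29320195), 544 kb away. Its signal was 0.0736 and 10.5 in ESC, 7.82 and 7.58 in NPC, 0.515 in tSBE6-Vp64, 8.13 in tSBE2-Vp64, and 7.20 and 12.6 in tSBE(6+2-Vp64). Only ESC replicate 1 and tSBE6-Vp64 were below 1. Since Shh_140 and Shh_143 lie within 20 kb of the edge, 3 of the 8 very high pairs count as within-domain when the edge is set 20 kb lower. The mean log2 ratio of crossing to within-domain signal with all pairs was then -1.65 (exact sign-flip permutation p = 0.0078).

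The third joined Shh_20 (chr5:28373717-28374948) with Shh_407 (chr5:29567141-29570404), 1194 kb away. Its signal was 0.0104 and 1.77 in ESC, 13.7 and 11.6 in NPC, 0.32 in tSBE6-Vp64, 5.17 in tSBE2-Vp64, and 1.49 and 6.60 in tSBE(6+2-Vp64). Both NPC replicates exceeded all others. Shh_69 with Shh_361, 883 kb apart, was also highest in NPC, at 7.54 and 7.40, against 0 and 0.781 in ESC. Shh_11 with Shh_216, 663 kb apart, had 0.0193 and 0.0586 in ESC, 2.37 and 1.13 in NPC, and 1.15 and 6.24 in tSBE(6+2-Vp64).

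The 10 highest crossing pairs shared a pattern over libraries. They were chosen by their mean level in these same values, so replicates with little signal in the very high pairs tend to be low in them. The counts that follow describe the chosen pairs and were not set against all crossing pairs. ESC replicate 1 was the lowest replicate in 10 of 10, and tSBE6-Vp64 lay below both NPC replicates and tSBE2-Vp64 in 10 of 10. Both NPC replicates lay above both ESC replicates in 5 of 10. The pairs used 9 distinct flank and 10 distinct domain fragments, and 8 lay over 500 kb apart, so they did not come from a single fragment. ESC replicate 2, of the same group and of like implied depth (20.7 against 22.0 M reads), stood above ESC replicate 1 in 10 of 10. The share of pairs detected moved with the pattern: ESC replicate 1, tSBE6-Vp64 and tSBE(6+2-Vp64) replicate 1, which had the least signal in the very high pairs, had 79.8%, 88.5% and 99.9% of crossing pairs above 0, and the other 5 replicates 40.0% to 75.3%. Its part in the result was not tested.

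**Figure D4:**
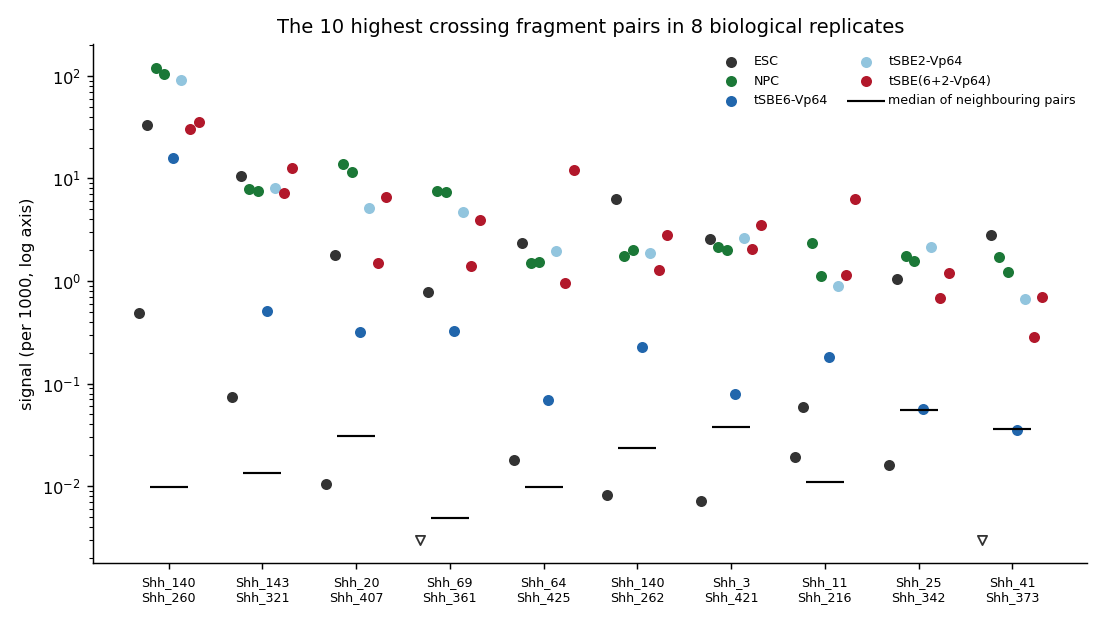
The y axis gives the signal per 1000 on a log axis and the x axis the 10 crossing fragment pairs with the highest mean of group means; each point is 1 biological replicate, coloured by group, black bars are the median of the neighbouring pairs, and open triangles stand for values under 0.003. ESC replicate 1 is the lowest point of every pair, at 0.492 for Shh_140 with Shh_260 where NPC replicate 1 stands at 120.4.

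The lower level of crossing contacts ran along most of the flank and the domain. In blocks of 100 kb counted away from the edge, without the very high pairs, the log2 ratio of crossing to within-domain signal at equal distance was below 0 in all 8 replicates in 13 of 15 blocks. The block of the flank nearest the edge held 2021 pairs and stood at -1.10 and -0.95 in ESC, -0.64 and -0.75 in NPC, -1.0 in tSBE6-Vp64, -0.82 in tSBE2-Vp64, and -0.61 and -0.90 in tSBE(6+2-Vp64). The block of the domain nearest the edge, which holds Shh, had 615 pairs and stood at -1.10 and -0.78 in ESC, -0.65 and -1.03 in NPC, -1.04 in tSBE6-Vp64, -0.87 in tSBE2-Vp64, and -0.73 and -0.69 in tSBE(6+2-Vp64). There ESC and NPC overlapped.

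The exceptions lay farther out. The flank block 300 to 400 kb from the edge (635 pairs) had -0.52 and -0.16 in ESC, 0.83 and 0.67 in NPC, -0.57 in tSBE6-Vp64, 0.41 in tSBE2-Vp64, and -0.03 and 0.15 in tSBE(6+2-Vp64). In NPC 3 pairs of this block, Shh_25 with Shh_342, Shh_27 with Shh_223 and Shh_32 with Shh_355, held 14.2%, 12.04% and 11.7% of its signal, against 8.29%, 3.03% and 2.42% in ESC. The domain block 600 to 700 kb from the edge (567 pairs) had -1.20 and -0.26 in ESC, 0.30 and 0.03 in NPC, -1.49 in tSBE6-Vp64, 0.03 in tSBE2-Vp64, and -0.55 and -0.28 in tSBE(6+2-Vp64). Shh_25 with Shh_342 and Shh_32 with Shh_355 lay in both blocks and held 22.2% and 18.3% of the second in NPC. Both exceptions thus rest partly on a few pairs that are high but under the limit of the very high ones.

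The 6 fragments nearest the edge differed among themselves in which side they contacted. For each, signal over that expected from distance was compared between partners in the flank and in the domain within 400 kb, without the very high pairs. Shh_143, the last flank fragment, had a higher log2 ratio with the domain than with the flank in 7 of 8 replicates, by 0.56 ± 0.34 (SD, n = 8). Its neighbour Shh_140 had a difference of -0.01 ± 0.58, above 0 in 3 of 8 replicates, and Shh_139 (chr5:28759100-28763978) 0.13 ± 0.63, above 0 in 6 of 8. Of the first domain fragments, Shh_144 (chr5:28780564-28782634) had 0.91 ± 1.51, above 0 in 5 of 8, Shh_145 (chr5:28782635-28789524) 0.22 ± 0.54, above 0 in 4 of 8, and Shh_147 (chr5:28789547-28793709) -0.43 ± 1.03, above 0 in 3 of 8. Only for Shh_143 was the mean difference larger than its SD over replicates.

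Contacts of the named genes and enhancers across the edge were read from windows centred on an approximate position of each and reaching 20 kb both ways. The 4 flank genes and 7 domain elements gave 28 window pairs of 9 to 66 fragment pairs each, and none held a very high pair. For the 18 whose distances were all covered by within-domain pairs, the mean signal was compared with that of within-domain pairs at the same distances. The median of the 18 ratios was 0.489, and 17 had a median replicate below the domain level, 13 of them with all 8 replicates below it. By flank gene the median ratio was 0.867 for Insig1, 0.455 for En2, 0.501 for Cnpy1 and 0.313 for Rbm33.

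Rbm33, the flank gene nearest the edge, had the lowest contact with Shh for its distance. Rbm33 with Shh, 104 kb apart, had a mean signal per fragment pair of 0.0031 and 0.0028 in ESC, 0.003 and 0.0018 in NPC, 0.0063 in tSBE6-Vp64, 0.0029 in tSBE2-Vp64, and 0.0093 and 0.0039 in tSBE(6+2-Vp64). That was a median of 0.182 of the within-domain level, and all 8 replicates were below 0.291 of it. Insig1 with Shh, 397 kb apart, had 0.0125 and 0.013 in ESC, 0.0242 and 0.0123 in NPC, 0.0162 in tSBE6-Vp64, 0.0178 in tSBE2-Vp64, and 0.0249 and 0.015 in tSBE(6+2-Vp64). It was the only one of the 18 whose median was not below the domain level, at 1.07 of it, and in NPC 72.3% of it came from the single pair Shh_27 with Shh_151.

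Cnpy1 with Shh, 241 kb apart, lay between them, with 0.008 and 0.008 in ESC, 0.0055 and 0.0027 in NPC, 0.0099 in tSBE6-Vp64, 0.0066 in tSBE2-Vp64, and 0.0126 and 0.0054 in tSBE(6+2-Vp64). Both NPC replicates were below both ESC replicates. In limma the log2 difference was -0.92 (SE 0.74, adjusted p = 0.993). The level of Insig1 with Shh exceeded that of Rbm33 with Shh in every replicate although it lies farther off, while En2 with Shh exceeded Insig1 with Shh in both ESC replicates and was below it in the other 6.

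En2 with Shh, 295 kb apart, had the lowest unadjusted p of the crossing window pairs. Its mean signal was 0.0218 and 0.0246 in ESC, 0.004 and 0.0053 in NPC, 0.0156 in tSBE6-Vp64, 0.0127 in tSBE2-Vp64, and 0.0148 and 0.0067 in tSBE(6+2-Vp64). Both ESC replicates lay above every other replicate. In limma the log2 difference of NPC from ESC was -2.16 (95% interval -3.53 to -0.79), with an unadjusted p of 0.0022 and an adjusted p of 0.196, so it did not pass. The other groups had log2 differences of -0.54 in tSBE6-Vp64, -0.83 in tSBE2-Vp64 and -1.15 in tSBE(6+2-Vp64). Over the 21 alternative settings the NPC difference stayed negative, from -2.96 to -1.16, and passed in 6.

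In limma 0 of the 28 crossing window pairs passed at an adjusted p of 0.05 in each of the 4 comparisons with ESC, as did 0 of all 91 (0%). At an unadjusted p under 0.05 there were 2 of 28 in NPC (4.4% of all 91), 0 in tSBE6-Vp64 (0%), 0 in tSBE2-Vp64 (2.2%) and 2 in tSBE(6+2-Vp64) (4.4%). Besides En2 with Shh, the NPC count held Rbm33 with SBE6, which had 0.0042 and 0.0012 in ESC, 0.0106 and 0.0076 in NPC, 0.0074 in tSBE6-Vp64, 0.0072 in tSBE2-Vp64, and 0.0121 and 0.0077 in tSBE(6+2-Vp64). Both ESC replicates were below all others, by a log2 difference of 1.65 in NPC (adjusted p = 0.634) and 1.75 in tSBE(6+2-Vp64) (adjusted p = 0.604), and 45.6% of the NPC value came from Shh_117 with Shh_181. The remaining one was En2 with ZRS in tSBE(6+2-Vp64). It had 0.006 and 0.0021 in ESC, 0.0101 and 0.0061 in NPC, 0.0095 in tSBE6-Vp64, 0.013 in tSBE2-Vp64, and 0.019 and 0.0176 in tSBE(6+2-Vp64), a log2 difference of 2.12 (limma, adjusted p = 0.276). In tSBE(6+2-Vp64), 55.3% of it came from Shh_53 with Shh_444. The technical replicates of that group differed, at 0.0278 and 0.0102 in replicate 1 and 0.0328 and 0.00228 in replicate 2. The last of these lay between the ESC replicates. Without the library that stands apart, 2 crossing window pairs passed in NPC and 1 in tSBE(6+2-Vp64). Without tSBE(6+2-Vp64) replicate 1 these counts were 2 and 1, and without replicate 2 they were 2 and 6.

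**Figure D5:**
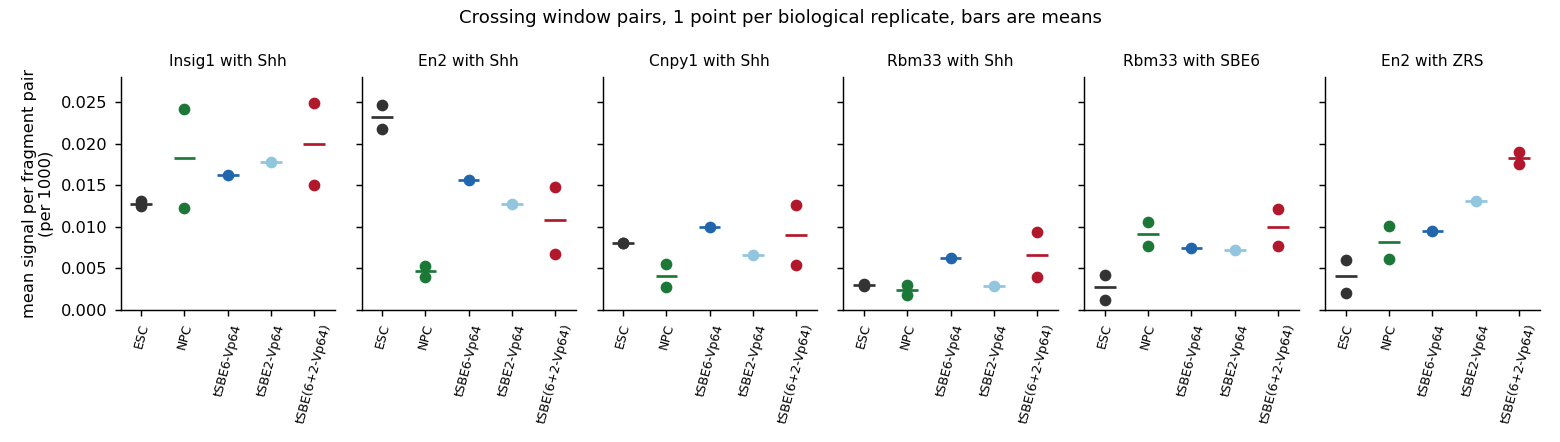
The y axis gives the mean signal per fragment pair per 1000 of 6 crossing window pairs and the x axis the 5 groups; points are biological replicates and bars their means, with 1 replicate in tSBE6-Vp64 and tSBE2-Vp64. En2 with Shh stands at 0.0218 and 0.0246 in ESC, above every other replicate, while Rbm33 with Shh is at or below 0.0093 throughout.

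Over bins of 20 kb, the whole map gave 3439 bin pairs that could be tested, 1061 of them crossing. In limma 1 crossing bin pair passed in NPC against ESC at an adjusted p of 0.05 (0.116% of all bin pairs passed), 0 in tSBE6-Vp64 (0%), 0 in tSBE2-Vp64 (0%) and 0 in tSBE(6+2-Vp64) (0.0582%). At an unadjusted p under 0.05 there were 68 crossing bin pairs in NPC, 42 higher and 26 lower, or 6.41% against 8.03% of all. There were 16 in tSBE6-Vp64 (1.51% against 1.13%), 34 in tSBE2-Vp64 (3.20% against 3.75%) and 32 in tSBE(6+2-Vp64), 30 of them higher (3.02% against 3.14%). The crossing shares were thus near those of the whole map. The counts at an adjusted p of 0.05 moved with single ESC replicates: without replicate 1 or 2 they were 17 and 22 in NPC, 17 and 2 in tSBE6-Vp64, 13 and 14 in tSBE2-Vp64, and 16 and 15 in tSBE(6+2-Vp64).

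Bin pairs with no overlap between replicates were counted in both directions. Both NPC replicates lay above both ESC replicates in 197 crossing bin pairs, 18.6% against 14.2% of all, and below both in 191, 18.0% against 28.6% of all. Both tSBE(6+2-Vp64) replicates lay above both ESC replicates in 245, 23.1% against 17.2%, and below both in 20, 1.89% against 3.2%. The median log2 difference from ESC was 0.02 over crossing bin pairs and -0.26 over all in NPC, 0.50 and 0.46 in tSBE6-Vp64, 0.18 and -0.01 in tSBE2-Vp64, and 0.52 and 0.27 in tSBE(6+2-Vp64). The values of tSBE(6+2-Vp64) rest on the library that stands apart. Without it the median was 0.047 over crossing bin pairs and -0.15 over all, and 151 crossing bin pairs lay above both ESC replicates (14.2% against 11.02% of all) and 173 below both (16.3% against 19.9%). With each value divided by the mean of its distance class, the crossing and whole-map medians were -0.72 and -0.75 in NPC, 0.49 and 0.31 in tSBE6-Vp64, -0.46 and -0.47 in tSBE2-Vp64, and -0.091 and -0.15 in tSBE(6+2-Vp64). The medians in signal per 1000 also move with the scaling to a common total, of which pairs over 50 kb apart took 37.3% and 40.6% in ESC and 74.3% and 69.0% in NPC. The difference between crossing and other bin pairs was not tested.

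The crossing bin pair that passed in NPC joined chr5:28580001-28600000, 190 kb below the edge, with chr5:29320001-29340000, 550 kb above it, and held 6 fragment pairs. Its mean signal was 0.00696 and 0.00359 in ESC, 0.227 and 0.186 in NPC, 0.0176 in tSBE6-Vp64, 0.159 in tSBE2-Vp64, and 0.0883 and 0.0511 in tSBE(6+2-Vp64). Every replicate of another group lay above both ESC replicates. The log2 difference of NPC from ESC was 5.15 (SE 0.64, 95% interval 3.77 to 6.53; limma, adjusted p = 0.0048). It came from 1 fragment pair: Shh_81 with Shh_324 held 98.5% of the NPC value, and without it the bin pair stood at 0.00449 in ESC and 0.00369 in NPC. The call was lost without either tSBE(6+2-Vp64) replicate (limma, adjusted p = 0.278 and 0.238), whose values enter the common spread, while the log2 difference stayed at 5.20 and 5.08. The same bin pair had the lowest p of the crossing bin pairs in tSBE2-Vp64, with a log2 difference of 4.78 (adjusted p = 0.108), and had 3.55 in tSBE(6+2-Vp64) (adjusted p = 0.0943).

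No other crossing bin pair passed. The 3 with the smallest p per comparison included chr5:28340001-28360000 with chr5:29000001-29020000 in tSBE(6+2-Vp64), which went from 0.0104 and 0.00641 in ESC to 0.102 and 0.485, a log2 difference of 4.64 (limma, adjusted p = 0.0666). Of that level 96.8% came from Shh_11 with Shh_216, one of the very high pairs. In replicate 2 that fragment pair stood at 12.4 in technical replicate 1 and 0.0911 in technical replicate 2, so the value of 0.485 rests on 1 library. In tSBE6-Vp64 the bin pair chr5:28440001-28460000 with chr5:29600001-29620000 was 0.000159 and 2.42e-05 in ESC and 0.0254 in the single replicate (log2 difference 4.92, limma adjusted p = 1). It stood at 0.0188 and 0.0244 in tSBE(6+2-Vp64) (adjusted p = 0.223). Lower than ESC was chr5:28420001-28440000 with chr5:29680001-29700000, a bin pair of 1 fragment pair, with 0.0495 and 0.0216 in ESC, 0.00111 in tSBE6-Vp64 (log2 difference -4.16, limma adjusted p = 1) and 2.07e-05 in tSBE2-Vp64 (log2 difference -5.40, adjusted p = 0.142). The other 2 named by the rule were chr5:28600001-28620000 with chr5:29380001-29400000 in tSBE6-Vp64 (log2 difference -4.36, adjusted p = 1) and chr5:28360001-28380000 with chr5:28980001-29000000 in tSBE2-Vp64 (log2 difference -4.79, adjusted p = 0.142). The groups with 1 replicate were taken to vary like the others.

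Biological replicates of the same group were no more alike in their crossing pairs than replicates of different groups. Spearman's rho over the 7900 pairs was 0.178 between the replicates of ESC, 0.296 in NPC and 0.304 in tSBE(6+2-Vp64). Between replicates of different groups it was 0.194 to 0.525. These values are a description over fragment pairs that share fragments, depth and scaling.

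The edge at the other end of the domain, beside Lmbr1, served as a comparison. Its 6386 pairs, without the very high ones, had log2 ratios to within-domain signal of -0.78 and -0.77 in ESC, -0.10 and -0.29 in NPC, -1.30 in tSBE6-Vp64, -0.10 in tSBE2-Vp64, and -0.40 and -0.55 in tSBE(6+2-Vp64). The order of the groups was like that at the Shh side, with tSBE6-Vp64 lowest and NPC among the highest. Both edges were divided by the same within-domain level, which differed between groups, so these orders are not independent of each other. The ratio at the Shh side was lower in 7 of 8 replicates, by a log2 difference of -0.17 ± 0.20 (SD, n = 8; exact sign-flip permutation p = 0.0547), so the edges were not separable at this number of replicates. The exception was tSBE6-Vp64, at 0.20. Against pairs within the flank beyond Lmbr1, the log2 ratios of this edge were -0.80 and -0.67 in ESC and -0.81 and -0.87 in NPC. They were -0.89 in tSBE6-Vp64, -0.84 in tSBE2-Vp64, and -0.75 and -0.75 in tSBE(6+2-Vp64). With that flank as the reference both NPC replicates lay below both ESC replicates.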

How the data were processed

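The deposited matrices hold 5C signal per pair of HindIII fragments, scaled by the authors to about 1000 per library, as read from the values, whose low entries are whole multiples of a smallest step. The build is mm9, per the submitters' processing notes. The sources used here name no aligner or read filter. The authors' own tables of means over technical replicates were not used. The labels name no molecular identifiers. In the scan and for single fragments, expected signal is the mean over the whole map at the same distance, without the very high pairs. Bin and window means were fitted with limma 3.58.1 in R 4.3.3, all 5 groups in 1 model, using eBayes with trend and two-sided p-values adjusted by Benjamini-Hochberg over the whole map. They entered as log2(value + 0.000774), where the added value is the 5th percentile of nonzero bin pairs. Bin pairs above 0 in at least 2 replicates entered. Residual degrees of freedom were 3 (12.3 for bin pairs after moderation); for window pairs the spread came wholly from the trend. Python 3.11.15, numpy 2.4.6 and pandas 2.3.3 made the tables. The limma fit and the ratio at equal distance were run on simulated data. The simulated noise was independent between pairs and no very high pairs were planted, so the runs do not cover those features of the data. Each flank window with Shh, the 10 highest crossing pairs, the 3 fragments nearest the edge on each side, and per comparison the passing bin pairs or else the 3 with the smallest p were named by rule. Rbm33 with SBE6 and En2 with ZRS were singled out after their values were seen. The members and lists were chosen with earlier results of these data known. Replicate numbers were not taken to pair the samples. Exons and introns were not assigned, since no mm9 annotation was used here.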

Additional observations from a re-analysis of the deposited data

Results flagged for a closer look

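Values over the 4 tSBE(6+2-Vp64) libraries were compared for 25 measures, and in 4 of them 1 library stood far from the other 3. The cut used flags about 1 in 20 by chance for independent, normally spread values. These libraries are technical replicates of 2 biological replicates and the measures share them, so that rate need not hold here. Technical replicate 1 of replicate 2 stood high in 3 of the highest crossing pairs: 7.20 for Shh_69 with Shh_361 (the others 0.632 to 1.61), 22.7 for Shh_64 with Shh_425 (0.0579 to 1.85) and 12.4 for Shh_11 with Shh_216 (0.0911 to 1.44). Technical replicate 1 of replicate 1, the library with nearly all pairs above 0, stood high in Cnpy1 with Shh, at 0.0193 (0.00459 to 0.00617).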

How the results depend on the processing

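With all pairs, the mean log2 ratio of crossing to within-domain signal (-0.34) passed its test without pairs over 0.5% (-0.70) or 0.1% of a library (-0.70), with limited values (-0.77), as percent of pairs above 0 (-0.23), and with the edge 20 kb lower (-1.65) or higher (-0.55); it was 0.014 with 5 distance classes per factor of 10, and -0.42 to -0.24 without 1 replicate each. The ratio to the flank (0.34) turned to -0.95, -0.95, -0.999, -0.26 and, with the lower edge, -1.90. The lower edge also turned the difference from ESC in the crossing share to -2.53 points in NPC and -2.90 in tSBE2-Vp64, in the domain ratio to -0.52 in both, and in the flank ratio to -1.17 and -0.75. The domain difference was 0.36 (NPC) and 0.26 (tSBE2-Vp64) with limited values, 0.032 and 0.10 by percent above 0, and 0.39 and 0.24 without pairs over 0.1%.

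The NPC count of crossing bin pairs (1) was 0 when scaled over pairs beyond 50 kb, divided by distance class, in 10-kb bins, without trend, or without the library that stands apart. It was 11 in 40-kb bins, 9 for bin pairs above 0 in all replicates and 8 at a pseudocount 10 times larger. In that order the last 3 settings gave 4, 4 and 2 in tSBE2-Vp64 and 7, 6 and 1 in tSBE(6+2-Vp64), and 40-kb bins gave 1 in tSBE6-Vp64. With a replicate block the counts were 11 in NPC, 6 in tSBE2-Vp64 and 6 in tSBE(6+2-Vp64). Same-numbered replicates correlated at -0.03 (ESC with NPC), 0.21 (ESC with tSBE(6+2-Vp64)) and -0.01 (NPC with tSBE(6+2-Vp64)) over bin pairs. Whether same-numbered replicates share more than a number was not tested. Leaving out 1 replicate gave 0 to 22 in NPC, 0 to 17 in tSBE6-Vp64, 0 to 14 in tSBE2-Vp64 and 0 to 16 in tSBE(6+2-Vp64): without ESC replicate 1 or 2 these were 17 and 22, 17 and 2, 13 and 14, and 16 and 15. Crossing window pairs called in NPC (0) were 4 when scaled beyond 50 kb, 3 by distance class, 1 in 10-kb and 1 in 40-kb windows, 2 without the library that stands apart, and 0 to 2 without 1 replicate; in tSBE(6+2-Vp64) the last 2 gave 1, and 0 to 6.

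The NPC difference of Insig1 with Shh (0.41) was -0.42 when scaled beyond 50 kb, -1.15 by distance class, -0.99 in 40-kb windows and -0.052 to 0.88 without 1 replicate. That of Rbm33 with Shh (-0.26) was 0.74 in 10-kb windows and -0.52 to 0.014 without 1 replicate. The cause of these changes was not tested. Leaving out the library that stands apart and the settings for pairs over 0.1% were chosen after the data were seen.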
